A study of Ambystoma mexicanum with 60 samples.

Results

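In 51 symbols of the axolotl *Ambystoma mexicanum*, 1 set of RNA records was lower and another was higher in 4-cell than in 1-cell embryos. Members were chosen by the deposited normalised totals per embryo of these 2 stages. A symbol was counted as such a switch when at least 1 of its transcripts had a ratio of stage means, (4-cell mean + 1) / (1-cell mean + 1), of 3 or more, at least 1 other had a ratio of 1/3 or less, and each had a mean of 300 or more in the stage where it was higher.  9194 symbols (names of human orthologs) were in the table, and 1843 of them had at least 2 transcripts with a mean of 300 or more in either stage. Of these, 2.77% were switches. Over all 28909 transcripts, 0.847% met the condition for rising and 1.63% that for falling. The switch symbols held 173 transcripts, of which 55 rose, 59 fell and 59 did neither. Since the 4-cell and 1-cell totals chose the members, every 4-cell to 1-cell value below is a description and was not tested.

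The study cut embryos frozen upright with 1, 4, 64 or about 1K cells into 5 pieces along the animal-vegetal axis (TOMO-seq), from section A at the animal pole to section E at the vegetal pole, and sequenced total RNA after removal of ribosomal RNA. The embryos were untreated and came from natural spawning. There were 3 embryos per stage, 1 library per section, and 59 libraries with counts, because the authors left out section D of 1-cell replicate 3 as an outlier, and the total of that embryo covers sections A, B, C and E. The embryos came from 2 experiments with different females and males, the sources used here do not say which embryo came from which parents, and a difference between stages and a difference between parents cannot be told apart.

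The egg is loaded with RNA while it grows in the ovary, and the first cleavages of an amphibian embryo run on this maternal store, since the embryo's own genes are mostly silent until the blastula. During that time RNAs can be stored, translated, given longer poly(A) tails, moved or degraded. One gene can give several RNAs through alternative starts, splicing and ends. The records counted here are contigs of an assembled transcriptome (AmexT_v34), and contigs under 1 symbol may be isoforms, alleles or related genes, which the files do not separate.

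Symbols with at least 2 such transcripts are called eligible below. For each symbol a main pair was formed from the qualifying rising transcript with the highest 4-cell mean and the qualifying falling transcript with the highest 1-cell mean. Both transcripts of the pair had the same best-matching protein of another species in 36 of 51 pairs, and 20 pairs were listed as paralogs of each other in the ortholog table. In the RefSeq annotation of assembly UKY_AmexF1_1, 45 of the symbols named exactly 1 protein-coding gene, 0 named more than 1 and 6 found none. Only names were matched there, which cannot show whether both records of a pair come from 1 gene. Reads were assigned by pseudoalignment, which divides reads shared by similar contigs, so the split between 2 such contigs is less certain than their sum. Counts were not divided by contig length. Levels, shares and sums of records therefore compare reads and not numbers of RNA molecules, and contig lengths were not compared.

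Libraries held 1546418 to 6001350 counts and embryos 14842060 to 22190036. Egg coat markers (*zp3*, *zp4*) had summed levels of 5063 to 11159 in 4-cell and 9377 to 11272 in 1-cell embryos, and the 4 germ plasm markers (*grip2*, *dnd1*, *nanos1*, *rbpms2*) of 6444 to 17622 in 4-cell and 22458 to 31844 in 1-cell embryos. Of the markers of other cell types, none of the 5 for red blood cells was in the table. The white blood cell marker *ptprc* (1 of 3 measured) had 1.16 to 13.2 in 4-cell and 248 to 316 in 1-cell embryos. *krt8* and *krt18* (2 of 4 keratinocyte markers) lay at 17.5 to 68.6 in 4-cell and 38.1 to 155 in 1-cell embryos, and *acta1* and *ckm* (2 of 4 muscle markers) at 4137 to 4676 and 4342 to 4736. The part of these markers in the switches was not tested.

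The switch was near complete in most pairs. The rising transcript made up a median of 97.7% of its pair in 4-cell and 7.33% in 1-cell embryos (medians over 51 pairs of means over 3 embryos). Its share was over 50% in all 51 pairs at the 4-cell stage and in 1 at the 1-cell stage (*cnp*). The embryos of a stage lay close together, with a median SD of the share of 1.46 points in 4-cell and 1.54 points in 1-cell embryos. The widest spreads were 22.8 points for *rgl2* at the 4-cell stage and 24.4 points for *zbtb11* at the 1-cell stage.

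The 6 embryos of the 64- and 1K-cell stages, which had no part in choosing the members, lay near the 4-cell embryos in share. Median shares of the rising transcript were 97.3% in 64-cell and 96.4% in 1K-cell embryos. In all 51 pairs each of these embryos had a higher share than each 1-cell embryo, which is a description too, since the 1-cell values chose the members. At the 64-cell stage only *nbea* lay below 50%, with 49.0% ± 14.8 (SD, n = 3).

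**Figure D1:**
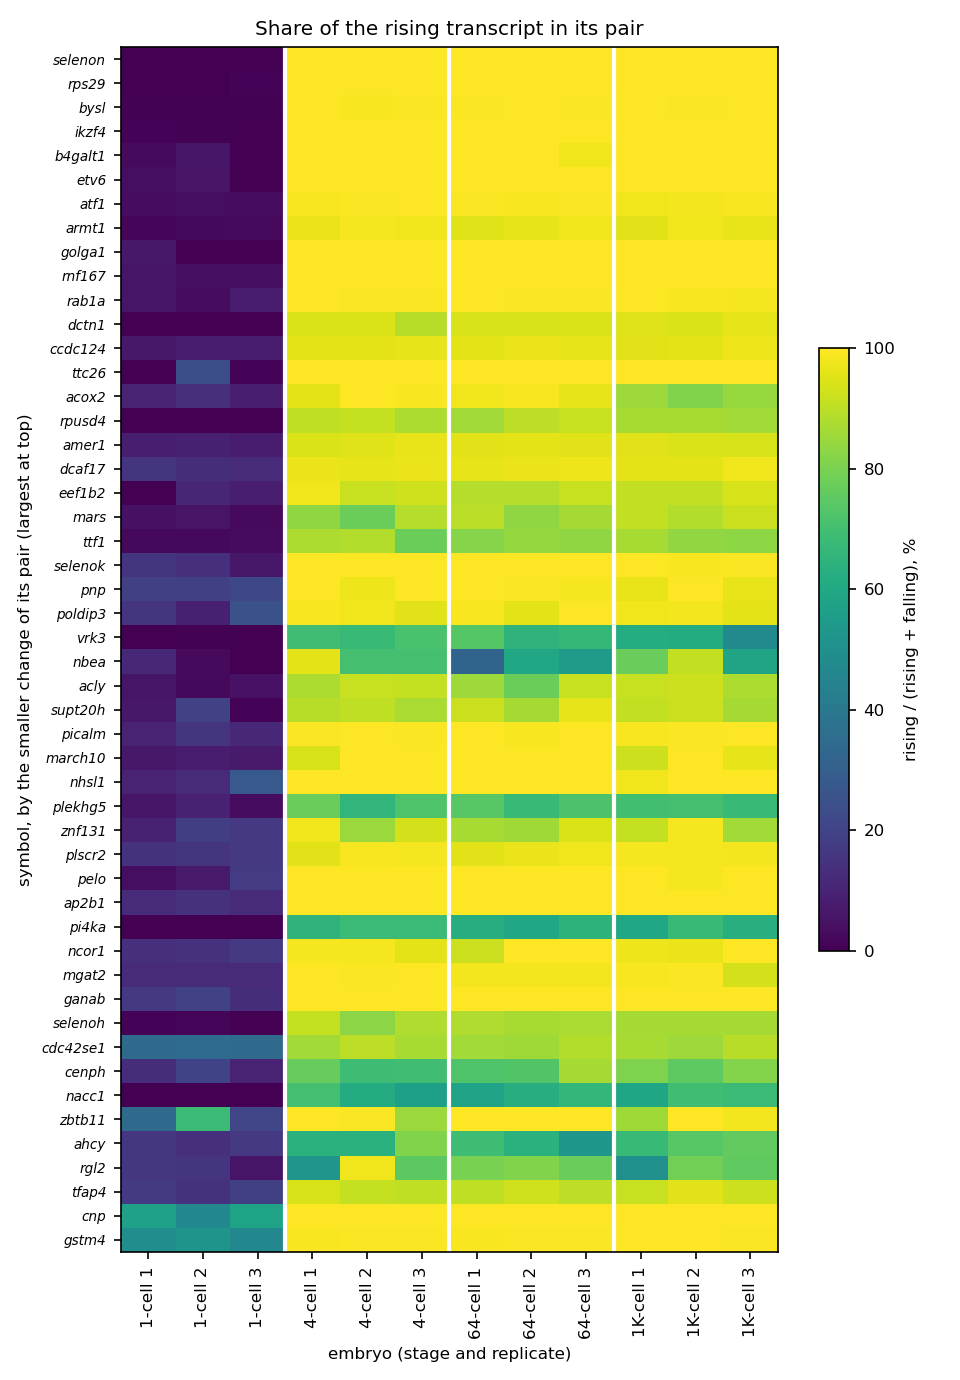
Share of the rising transcript in its main pair (colour, 0 to 100%) for 50 of the 51 symbols (rows, ordered by the smaller of the 2 changes) in 12 embryos (columns, 3 per stage). The dark block of 1-cell embryos gives way to light blocks at the 4-, 64- and 1K-cell stages, with medians over all pairs of 7.33%, 97.7%, 97.3% and 96.4%.

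Rising transcripts with counts in both stages (53) had log2 ratios of 1.62 to 9.89, and the falling ones (48) of -10.85 to -1.65, on the scale of the rule with 1 added to each mean. The outer values, 9.89 and -10.85, were those of *selenon*. Its records had almost no counts in their lower stage (values below), so these ratios depend on the added 1. Among the falling transcripts 11 had no count in any 4-cell embryo and 2 rising ones none in any 1-cell embryo. The rising ones were those of *nacc1*, a BTB-domain repressor (at least 442-fold), and *pi4ka*. Set against a floor of 3 counts per embryo, all of these differed by at least 114-fold (*ttc26*) to at least 685-fold (*ap2b1*). The median log2 ratio was 3.44 for rising and -5.35 for falling transcripts, the same with those at 0 placed at their bound.

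By the lesser of the changes of its records, on the scale with 1 added, the widest switch was that of *selenon*, which encodes a selenocysteine-containing glycoprotein of the endoplasmic reticulum known for its part in muscle. Its rising transcript (AMEXTC_0340000012806) had 2508, 2547 and 2052 normalised counts in 4-cell embryos and 0, 4.47 and 0 in 1-cell embryos. The falling one (AMEXTC_0340000017040) had 0, 2.34 and 0 in 4-cell and 2966, 3159 and 3755 in 1-cell embryos. Each record was all but absent from the stage where the other was high, and the rising record in 4-cell embryos lay below the falling one in 1-cell embryos, with no overlap. At the 64- and 1K-cell stages the rising transcript ranged from 2200.3 to 2934 and the falling one had no count in any of the 6 embryos. Over all 3 transcripts the symbol summed to 2700.1 ± 320.3 in 4-cell and 3576 ± 376 in 1-cell embryos (SD, n = 3 each).

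*bysl* encodes bystin, a factor for assembly of the small ribosomal subunit. Its rising transcript had 2876, 3377 and 3918 in 4-cell and 21.3, 23.5 and 23.3 in 1-cell embryos, and its falling one 7.56, 31.5 and 23.2 in 4-cell and 3772, 3598 and 3055 in 1-cell embryos. These are the only 2 records of the symbol, and they traded places at nearly equal counts. *rps29*, a protein of the small subunit, had 1 rising and 2 falling transcripts. The rising record had 516, 508 and 690.2 in 4-cell and 1.06, 0 and 3.68 in 1-cell embryos, while both falling records lay at or below 1.17 in 4-cell embryos, against 279 to 420.0 in 1-cell embryos. It was the 1 switch among 12 eligible symbols of ribosomal proteins, and no longer a switch when totals were taken over sections A, B, C and E alone.

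*ccdc124* encodes a ribosome-binding protein also found at the midbody of dividing cells. Its rising transcript averaged 2046 ± 31.3 in 4-cell and 124 ± 21.6 in 1-cell embryos, and its falling one 85.7 ± 8.98 in 4-cell and 1569 ± 98.9 in 1-cell embryos (SD, n = 3 each). Of the 18 eligible translation factors and aminoacyl-tRNA synthetases, *eef1b2* and *mars* were switches. *eef1b2*, a subunit of the exchange factor of elongation factor 1, had rising shares of 94.0% ± 3.25 in 4-cell and 6.35% ± 5.63 in 1-cell embryos. *mars*, the methionyl-tRNA synthetase, had 83.3% ± 5.62 in 4-cell and 4.18% ± 1.31 in 1-cell embryos. In *rpusd4*, a mitochondrial pseudouridine synthase, the rising transcript was all but absent at first: it had 459, 394 and 449.7 in 4-cell and 0, 1.12 and 0 in 1-cell embryos.

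**Figure D2:**
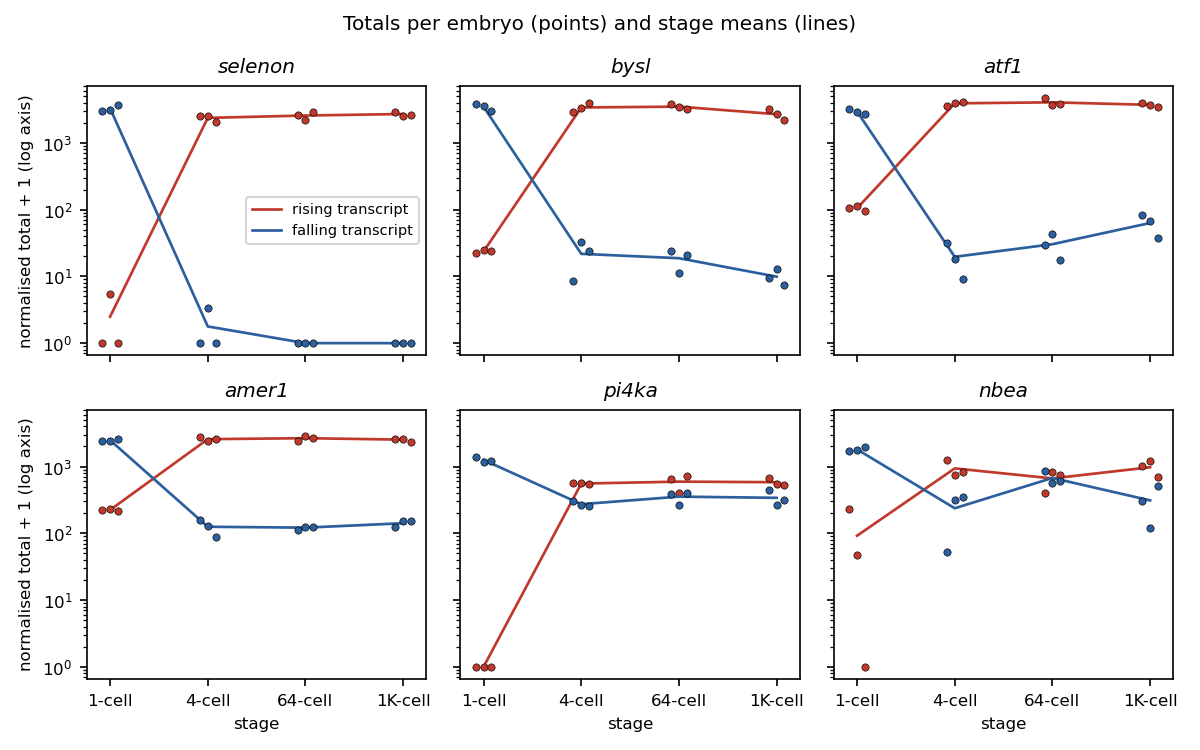
Normalised totals per embryo plus 1 (log axis) of the rising and falling transcript of 6 main pairs at the 4 stages, with points for embryos and lines joining stage means. The lines cross once, between the 1- and 4-cell stages, except in *nbea*, where both means lie close together at the 64-cell stage (664 rising and 674 falling).

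*atf1*, a leucine zipper factor of the CREB family, had the highest rising record of the named pairs, at 3603, 4019 and 4115 in 4-cell and 106, 111 and 94.6 in 1-cell embryos. Of its transcripts 2 fell, and the main one had 30.3, 17.5 and 8.13 in 4-cell and 3269, 2885 and 2710.3 in 1-cell embryos. *etv6*, an ETS-domain repressor, had a rising record at 666, 868 and 946 in 4-cell and 27.6, 35.8 and 0 in 1-cell embryos. Its falling record had no count in any of the 9 later embryos, against 707, 631 and 615 in 1-cell embryos, and was at least 199-fold lower in 4-cell embryos. *ikzf4*, a zinc finger factor of the Ikaros family, held 10 records, of which 2 fell and 1 rose. Both falling records had no count in any later embryo, and the rising one had 907, 808 and 586 in 4-cell and 18.1, 6.70 and 0 in 1-cell embryos.

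Among 38 eligible symbols beginning with ZNF, ZBTB, ZSCAN or ZFP, *zbtb11* and *znf131* were switches, and *ikzf4* and *nacc1* fall outside this list by their names. *znf131* had 2 rising records, whose main one averaged 1513 ± 127 in 4-cell and 289 ± 111 in 1-cell embryos, and a falling one at 129 ± 106 and 1634 ± 21.1 (SD, n = 3 each). *zbtb11* was among the least uniform pairs. Its falling record ranged from 0 to 119 in 4-cell and from 169 to 467 in 1-cell embryos, and the symbol was no longer a switch without 1-cell replicate 3.

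*b4galt1* encodes a galactosyltransferase of the Golgi. Its rising transcript had 1415, 1495 and 1605 in 4-cell and 35.1, 76.0 and 0 in 1-cell embryos, and its falling one, with 1411, 1256 and 1276 in 1-cell embryos, was at least 401-fold lower in 4-cell embryos, where it had no count. *golga1*, a golgin of the trans-Golgi, and *ganab*, the catalytic subunit of glucosidase II that trims glycoproteins, both had a falling record with no count in any later embryo. For *golga1* it had 1499, 1505 and 1502 in 1-cell embryos, and the rising record had 1105, 1222 and 1041 in 4-cell and 104, 0 and 0 in 1-cell embryos. By library the share of its rising record ran from 0% to 100% in the 1-cell stage, so that single sections overlapped those of the 4-cell stage. For *ganab* it had 1867, 1362 and 1604 in 1-cell embryos, and the rising record, already present before, had 1368, 949.6 and 1326 in 4-cell and 370.0, 333 and 242 in 1-cell embryos.

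*rab1a*, a GTPase of transport from the endoplasmic reticulum to the Golgi, and *ap2b1*, a subunit of the clathrin adaptor of the plasma membrane, were the switches among 52 eligible genes of Rab GTPases and vesicle traffic. In *rab1a* the rising record averaged 779 ± 58.1 in 4-cell and 37.5 ± 15.9 in 1-cell embryos, and the falling one 3.28 ± 0.38 and 647 ± 42.8 (SD, n = 3 each). In *ap2b1* the falling record, with 2300.0, 2094 and 2339 in 1-cell embryos, was at least 685-fold lower in 4-cell embryos, where none had a count. Its rising record had 1607, 1451 and 1602 in 4-cell and 315, 349.8 and 334 in 1-cell embryos. *rnf167*, a ubiquitin ligase of endosomes and lysosomes, was the 1 switch in a list of 53 eligible genes of ubiquitin conjugation and removal drawn up by the start of the symbol, which leaves out other switch symbols with such a role, *dcaf17* and *march10*. Its falling record had 649, 649 and 513 in 1-cell embryos and no count later, and its rising one 594, 619 and 727 in 4-cell and 39.3, 27.9 and 20.9 in 1-cell embryos.

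In *dctn1*, the large subunit of dynactin, which couples dynein to its cargo and to microtubules, the rising record had 1499.5, 1316 and 1132 in 4-cell and 0, 2.23 and 0 in 1-cell embryos. The falling record kept a small remainder, with 80.4, 78.3 and 135 in 4-cell and 1909.7, 1805 and 1811 in 1-cell embryos. It was the 1 switch among 21 eligible genes of microtubules and motors. *ttc26*, a part of the intraflagellar transport complex that builds cilia, had a falling record at 371, 296 and 457 in 1-cell embryos that no later embryo held. Its rising record had 558, 495 and 579 in 4-cell and 0, 93.9 and 3.68 in 1-cell embryos, so that 1-cell replicate 2 already held some of it, and the symbol was no longer a switch with sums of normalised section counts and 1-cell replicate 3 left out.

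*pi4ka* encodes a phosphatidylinositol 4-kinase of the plasma membrane. Its rising record had 559, 559 and 548 in 4-cell embryos and no count in any 1-cell embryo, at least 163-fold higher in 4-cell embryos. The other record of the symbol had 301, 262 and 254 in 4-cell and 1399, 1155 and 1219 in 1-cell embryos. Together they summed to 828 ± 28.8 in 4-cell and 1258 ± 126 in 1-cell embryos (SD, n = 3 each). The summed count was thus lower at the 4-cell stage, with no overlap between the embryos of the 2 stages. As counts were not divided by contig length, this does not show fewer RNA molecules. In contrast to most pairs, the falling record kept a sizeable part, and its partner reached 67.2% ± 1.85 of the pair in 4-cell embryos.

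*amer1*, a membrane-bound partner of APC in Wnt signalling, had 2 records with similar counts in the stage where each was high. The rising one had 2742, 2380.3 and 2598 in 4-cell and 222, 234 and 214 in 1-cell embryos, and the falling one 159, 126 and 88.3 in 4-cell and 2453, 2427 and 2573 in 1-cell embryos. The sum of both was 2698 ± 197 in 4-cell and 2707 ± 68.7 in 1-cell embryos, a difference smaller than the SD over embryos. *cdc42se1*, a small effector of the GTPase CDC42 whose name begins like those of the cell division genes and which stood among the 25 eligible genes of the cyclin list for that reason only, had a share of 87.7% ± 1.98 in 4-cell and 34.6% ± 0.184 in 1-cell embryos (SD, n = 3 each).

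Among enzymes of metabolism, *acox2*, a peroxisomal oxidase of branched-chain acids and bile acid precursors, had a rising record at 513, 530.3 and 528 in 4-cell and 31.9, 51.4 and 30.7 in 1-cell embryos, and it was lost as a switch with sections A, B, C and E alone. *armt1*, a carboxyl methyltransferase, and *dcaf17*, a substrate receptor of a cullin ubiquitin ligase, had only small remainders of the falling record. The share of the rising record was 97.9% ± 0.836 in 4-cell and 1.85% ± 0.584 in 1-cell embryos for *armt1*, and 96.8% ± 0.476 in 4-cell and 13.4% ± 1.60 in 1-cell embryos for *dcaf17* (SD, n = 3 each).

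Among the symbols with a call by section or by usage, *cnp*, a cyclic nucleotide phosphodiesterase best known from myelin, had a rising record already abundant at first, at 3668, 2674 and 2156 in 4-cell and 996, 624 and 1118 in 1-cell embryos, and 3 falling ones, whose main one had 0, 0 and 8.13 in 4-cell and 739, 713 and 809 in 1-cell embryos. *selenoh*, a nucleolar selenoprotein, had a rising record at 1272, 1001 and 1415 in 4-cell and 7.44, 11.2 and 1.23 in 1-cell embryos. In *poldip3* the rising share was 97.5% ± 1.84 in 4-cell and 16.3% ± 8.00 in 1-cell embryos (SD, n = 3 each).

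Summed over all transcripts, most switch symbols lay within 1.5-fold between the 2 stages, a somewhat smaller part than over all symbols. The log2 ratio of summed levels, 4-cell over 1-cell, ran from -1.24 (*plekhg5*) to 0.63 (*dcaf17*) with a median of -0.16, and 44 of 51 symbols (86.3%) lay within 1.5-fold. Over all 7586 symbols with a summed level of 300 or more in either stage, the median was -0.03 and 91.5% lay within 1.5-fold. The summed level was over 1.5-fold lower at the 4-cell stage in 6 switch symbols (11.8%, against 5.29% of all symbols) and over 1.5-fold higher in 1 (1.96%, against 3.20%). The 3 embryos of the 4-cell stage all lay below those of the 1-cell stage in 22 of 51 switch symbols and above them in 11, and overlapped in 18. Over all symbols, 21.3% lay wholly below and 15.7% wholly above, both smaller parts than among the switch symbols. This difference was not tested.

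*atf1*, *bysl* and *amer1* had similar summed levels in both stages. The sums were 4993 ± 322 in 4-cell and 5136 ± 424 in 1-cell embryos for *atf1*, and 3411 ± 529 and 3498 ± 373 for *bysl* (SD, n = 3 each). The sum of *plekhg5* was 1424 ± 717 in 4-cell and 3373 ± 795 in 1-cell embryos. In *mars* it was 1227 ± 332 in 4-cell and 2057 ± 250.3 in 1-cell embryos, and in *ap2b1* 1553 ± 89.1 and 2577 ± 119. The sum of *dcaf17* was the 1 that lay over 1.5-fold higher, at 841 ± 72.4 in 4-cell and 544 ± 55.9 in 1-cell embryos.

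**Figure D3:**
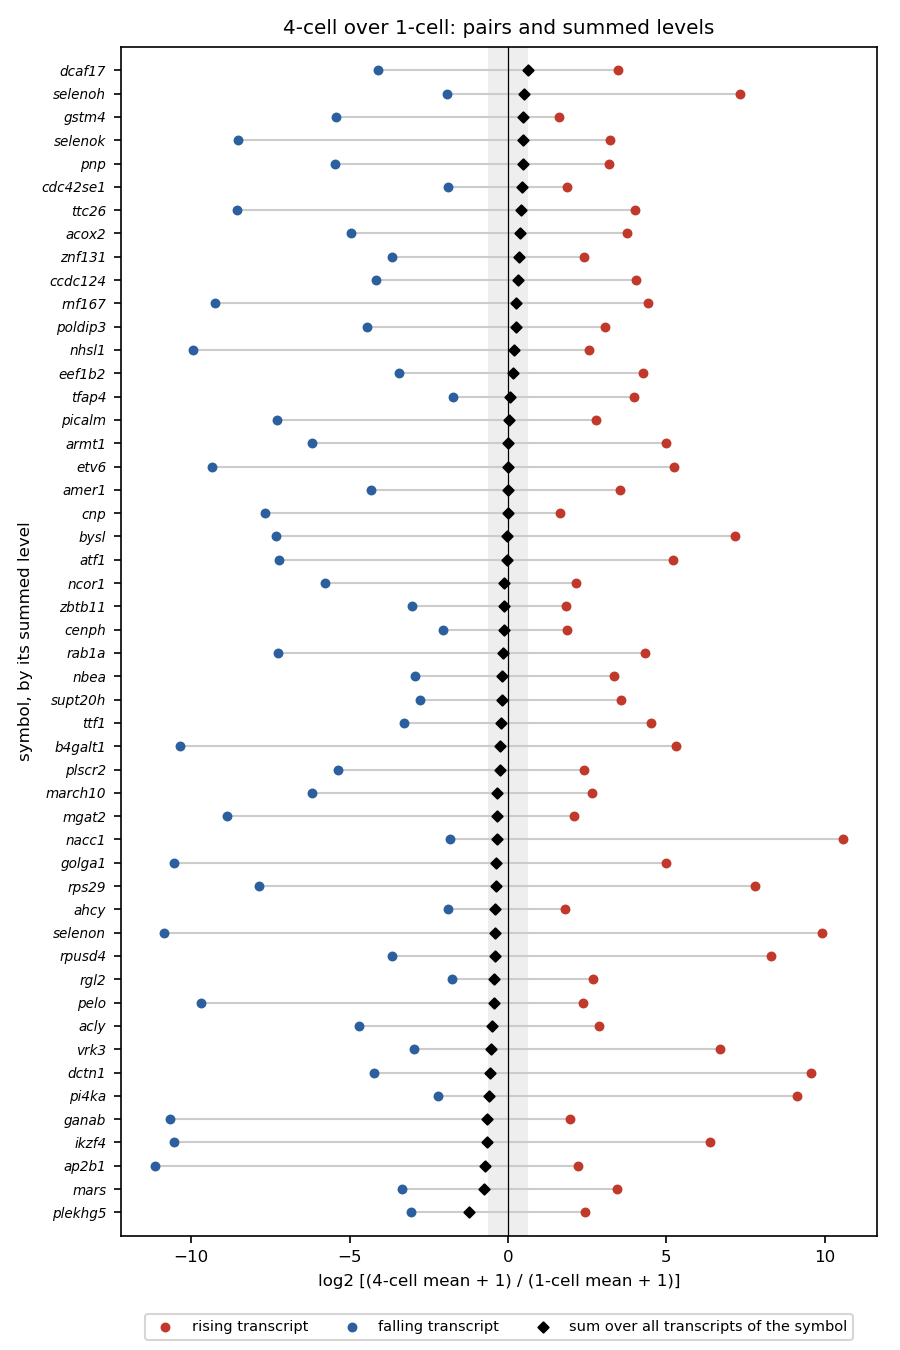
Log2 ratio of the 4-cell over the 1-cell mean, with 1 added to each, for the rising transcript, the falling transcript and the sum over all transcripts of 50 of the 51 symbols (rows), with a grey band for changes within 1.5-fold. The sums crowd around 0, 43 of them inside the band, where 91.5% of all symbols with a summed level of 300 or more lay too. For records at 0 in 1 stage the position depends on the added 1.

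The switching records carried most of a symbol's level, a median of 85.0% in 4-cell and 79.9% in 1-cell embryos. In 15 symbols there were no other records. The least was found in *picalm*, a clathrin assembly protein, with 14.6% in 4-cell and 17.6% in 1-cell embryos. Of the 59 remaining records, 31 had a mean of 300 or more in either stage, and 19 of these stayed within 1.5-fold. A symbol could thus hold records that rose, fell and stayed side by side.

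Of 23 functional lists, drawn up by symbol or its start, 15 held no switch symbol. The lists without one ran from no eligible symbol at all (histones) to 38 (chromatin modifiers), and with 2.77% of all eligible symbols being switches nothing is read from a count of 0. No list held more than 2, and 11 of the 51 symbols were in any list. The 1 switch of 14 eligible symbols in the list of DNA replication and repair was *poldip3*, which was named for binding a subunit of DNA polymerase delta and is known for its part in mRNA export and translation.

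The same rule found no switch symbol at either later step. Between the 4- and 64-cell stages 32 transcripts rose and 3 fell, and between the 64- and 1K-cell stages 244 rose and 8 fell. Between the 1- and 4-cell stages the numbers were 245 and 470. Of the risers with a symbol at that first step (142), 38.7% belonged to switch symbols, and of the fallers with a symbol (338), 17.5%. A switch needs a riser and a faller with the same symbol. Between the 4- and 64-cell stages 5 risers and 3 fallers had a symbol. At the last step 13 of 244 risers and 5 of 8 fallers had one. With so few, nothing is read from the absence of switches at these steps.

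**Figure D4:**
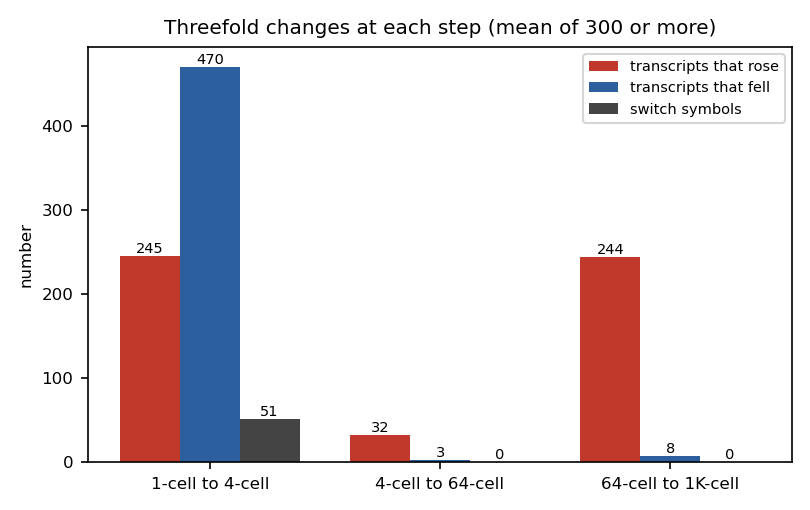
Number of transcripts that rose 3-fold or more, transcripts that fell by 3-fold or more and switch symbols (bars) at each of the 3 steps between neighbouring stages, with a mean of 300 or more in the higher stage. Switch symbols number 51 at the first step and 0 at both later steps, where few transcripts with a symbol changed.

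Between the 64- and 1K-cell stages, whose embryos the rule did not use, the switch transcripts could be tested. None of the 114 was called in 1K-cell over 64-cell embryos (edgeR quasi-likelihood test, Benjamini-Hochberg adjusted p under 0.01), though 8 falling records had no count in either stage and could not be. For comparison, 3.18% of all transcripts were (3.12% higher and 0.0623% lower in 1K-cell embryos) and 0.332% of those with a symbol. Of the switch transcripts 18 had an unadjusted p under 0.05, and without the same share over all transcripts nothing is read from this count. The nearest was the falling record of *acox2*, with 91.5, 123 and 95.2 in 1K-cell and 11.1, 3.72 and 16.0 in 64-cell embryos. Its log2 difference of 3.30 ± 0.68 (SE) had an adjusted p of 0.012 with edgeR and was called with DESeq2 (adjusted p = 1.78e-04), and over all alternatives its adjusted p lay between 1.78e-04 and 0.0502. The summed levels gave no call either, with 0.163% of all symbols called (0.141% higher and 0.0218% lower). Of the switch symbols 9 had an unadjusted p under 0.05, and without the same share over all symbols nothing is read from it. DESeq2 called 0 of the summed levels. The median log2 difference over the switch symbols was -0.00398.

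By section most pairs went the same way. The unscaled section counts make up the totals that chose the members, so the choice favoured this direction and it is a description. The rising record of the main pair had a higher mean in 4-cell than in 1-cell embryos in all 5 sections in 51 of 51 pairs, and the falling record a lower one in all 5 sections in 49, the exceptions being *supt20h* and *zbtb11*. In 41 pairs the 15 section libraries of the 4-cell stage all had a higher share of the rising record than the 14 of the 1-cell stage. The choice of members favoured this, other symbols were not compared, and sections of 1 embryo are not separate replicates. In *selenon* the rising record had 558 ± 102 in section A and 437 ± 10.4 in section E of 4-cell embryos, and the falling one 786 ± 86.3 and 599 ± 91.9 in those sections of 1-cell embryos (normalised counts per library, SD, n = 3 each). Section values were scaled per library and do not add up to the embryo totals.

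Within a stage, the section of an embryo had no part in the rule and was tested, with the embryo as a block. A transcript was called when the edgeR test of section gave an adjusted p under 0.01 and its mean total exceeded 20 in at least 1 stage. Of the 114 switch transcripts, 10 were called at the 1-cell stage (8.77%, against 6.93% of all transcripts), 6 at the 4-cell stage (5.26%, against 2.25%), 6 at the 64-cell stage (5.26%, against 3.7%) and 7 at the 1K-cell stage (6.14%, against 3.55%). Among transcripts with a mean total of 300 or more at the stage in question, the shares were 12.7% against 12.3%, 10.3% against 4.18%, 10.0% against 6.81% and 11.7% against 6.7% of all such transcripts. The calls of the 4 stages fell on 13 switch transcripts. Nearly all calls were vegetal: 9, 6, 6 and 6 in the order of stages. Most calls over all transcripts were vegetal too, 1617 of 2003, 602 of 651, 953 of 1070 and 926 of 1025 (5.59%, 2.08%, 3.3% and 3.2% of all transcripts). The remaining call at the 1-cell and the one at the 1K-cell stage were animal (*cnp*), as for 1.34% and 0.342% of all transcripts, and no member was called animal in 4-cell or 64-cell embryos, against 0.169% and 0.405%. Without 1-cell replicate 1, 2 or 3 the calls at that stage numbered 3, 4 and 3. Calls over all transcripts were then 481, 638 and 601, against 2003 with all embryos. Without 4-cell replicate 1 or 3 none remained, when calls over all transcripts were 86 and 77, and without replicate 2 there were 5. That last setting left 295 calls over all transcripts, against 651 with all embryos. Leaving out 1 embryo left 2, 2 and 1 calls among 64-cell embryos and 2, 3 and 3 among 1K-cell embryos. Over all transcripts it left 428, 232 and 122 at the 64-cell stage, against 1070 with all embryos. At the 1K-cell stage it left 248, 242 and 272 over all transcripts, against 1025.

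In *plekhg5*, *amer1*, *b4galt1* and *rnf167* the falling record was called vegetal at the 1-cell stage and the rising record at the 4-, 64- and 1K-cell stages. The largest difference was that of *plekhg5*. Its rising record had 1490.5, 475 and 1139 normalised counts in section E and 33.8, 42.6 and 29.1 in section A of 4-cell embryos, a vegetal-to-animal difference (sections D and E averaged, less the average of A and B, as log2) of 3.59 ± 0.29 (SE, adjusted p = 1.63e-05). Its falling record had 6891, 3015 and 5539.9 in section E and 38.3, 25.0 and 25.3 in section A of 1-cell embryos, with a difference of 5.78 ± 0.25 (adjusted p = 2.23e-07). Section E stood above all other sections in each embryo for both records, and in 4-cell replicate 2 section E was lower than in the other two. At the 64- and 1K-cell stages the rising record had differences of 4.09 ± 0.17 and 3.87 ± 0.15 (adjusted p = 5.27e-07 and 1.89e-07). These calls held when any 1 embryo was left out, except at the 4-cell stage, where both records were called and both calls were lost without replicate 1 or 3, with an adjusted p of up to 0.0123 for the rising one. The less abundant partner was called vegetal too, the falling record at the 64- and 1K-cell stages and the rising one at the 1-cell stage, where the call was lost whichever embryo was left out. The call of the falling record at the 64-cell stage was lost without replicate 3, with an adjusted p of 0.0137.

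*amer1* was moderately vegetal in both records. The rising one had 987, 731 and 915 in section E and 419, 476 and 332 in section A of 4-cell embryos, and the falling one 1287, 907 and 1199 in section E and 393, 377 and 382 in section A of 1-cell embryos. The vegetal-to-animal differences were 0.75 ± 0.10 for the rising record at the 4-cell stage and 1.06 ± 0.09 for the falling record at the 1-cell stage (SE, adjusted p = 0.00176 and 2.71e-05). Of its counts scaled per library and summed over the 5 sections, the rising record had 33.4% in section E of 4-cell embryos. The falling one had 39.4% in that of 1-cell embryos with all sections. These are not shares of the RNA in the embryo. The rising record was called at each of the 4 stages. Its calls at the 1- and 64-cell stages were lost when any 1 embryo was left out, that at the 4-cell stage without replicate 1 or 3 and that at the 1K-cell stage without replicate 1, while the call of the falling record at the 1-cell stage held whichever embryo was left out.

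In *b4galt1*, *rnf167* and *ganab* the level of the rising record, scaled per library, was higher in the vegetal than in the animal sections of 4-cell embryos. Whether the records of a pair differ in position between the stages was not tested. In *b4galt1* the differences were 1.13 ± 0.15 for the rising record at the 4-cell stage and 1.35 ± 0.13 for the falling one at the 1-cell stage (SE, adjusted p = 0.00231 and 2.94e-05). In *rnf167* they were 1.60 ± 0.17 for the rising and 1.54 ± 0.23 for the falling record (adjusted p = 0.00169 and 0.00322). The rising record of *ganab* was called at all 4 stages, with a difference of 1.32 ± 0.18 in 4-cell and 1.45 ± 0.20 in 1-cell embryos. Its falling record was not called at the 1-cell stage, where the difference was 0.51 ± 0.61 and section B of replicate 3 had 2.73 against 336 and 276 in the other two. The call of the falling record of *b4galt1* held whichever embryo was left out. The other calls of these 3 symbols were lost on leaving out any 1 embryo of their stage, except that those of *ganab* and *rnf167* at the 4-cell stage held without replicate 2, and without the block those of *ganab* and *rnf167* at the 64-cell stage and of *b4galt1* at the 1K-cell stage were lost.

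**Figure D5:**
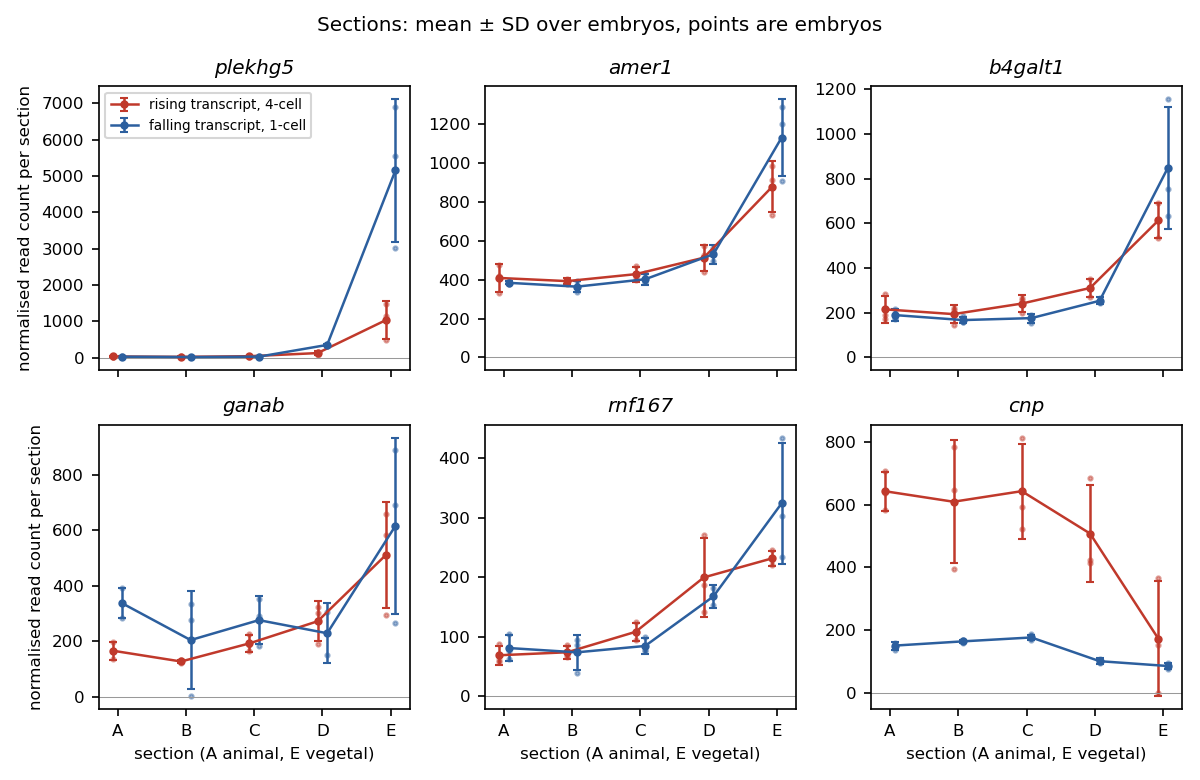
Normalised read count per section, A (animal) to E (vegetal), of the rising transcript in 4-cell embryos and the falling transcript in 1-cell embryos of 6 pairs, as mean ± SD (n = 3, and n = 2 in section D of the 1-cell stage) with points for embryos. In *plekhg5*, *amer1*, *b4galt1* and *rnf167* the means of both records peak in section E, and in *cnp* both are lowest there (172 in 4-cell and 85.2 in 1-cell embryos).

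*cnp* was the only animal-enriched symbol among the calls. Its main falling record had 84.4, 75.3 and 96.0 in section E and 158, 166 and 168 in section B of 1-cell embryos, with a vegetal-to-animal difference of -0.74 ± 0.09 (SE, adjusted p = 0.00137). The rising record was called at the 1K-cell stage, at -0.33 ± 0.05 (adjusted p = 0.00714), and not at the 4-cell stage, where section E of replicate 2 had no count of it while another record of the symbol had 418 there. Both calls were lost on leaving out any 1 embryo, and the second also without the block. At the 1-cell stage the falling records of *nbea*, a large scaffold protein of vesicle traffic, and of *ikzf4* were vegetal, with differences of 1.55 ± 0.14 and 1.13 ± 0.18 (adjusted p = 5.40e-05 and 0.00181). The call of *nbea* was lost without 1-cell replicate 1 or 3, and that of *ikzf4* whichever embryo was left out and without the block. Their rising records were not called at the 4-cell stage, at 0.75 ± 0.73 and 0.92 ± 0.31, and the difference between the records of the 2 stages was not tested.

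Over the 51 pairs, the vegetal-to-animal difference of the rising record at the 4-cell stage was set against that of the falling record at the 1-cell stage. The 2 differed by a median of 0.30 on the log2 scale, and in 5 pairs (9.80%) by over 1 (*acly*, *plekhg5*, *supt20h*, *ttc26* and *zbtb11*). The SE was large for the rising record of *acly* (1.14 ± 0.96) and the falling ones of *supt20h* (-5.32 ± 1.14), *ttc26* (-1.62 ± 0.90) and *zbtb11* (-2.47 ± 1.88). For 10971 transcripts of no switch symbol with a mean of 300 or more in both stages, the same transcript differed between these stages by a median of 0.19, and 3.20% by over 1. The positions correlated across pairs with Pearson's r of 0.69 (Spearman's coefficient 0.63), and across the other transcripts with 0.80 (Spearman's coefficient 0.69). These are descriptions across genes measured in the same libraries, and genes are not independent replicates. In *supt20h*, a subunit of the SAGA coactivator complex, section D of both 1-cell embryos with that section had no count of the falling record, and the rising one had 27.9 and 38.2 there. In 1-cell section D of *ttc26*, replicate 2 had 70.1 of the rising and none of the falling record, and replicate 1 none of the rising and 57.0 of the falling one.

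Whether the records of a symbol were spread differently along the axis was tested within each stage (edgeR diffSpliceDGE, vegetal against animal sections). Among the switch symbols 2 of 50 tested were called in 1-cell, 0 of 49 in 4-cell, 1 of 50 in 64-cell and 0 of 50 in 1K-cell embryos. Over all symbols with 2 or more records, 2.05%, 0.665%, 0.663% and 0.688% were called. At the 4- and 1K-cell stages, where limma also called none, 6 and 9 switch symbols had an unadjusted p under 0.05. At the 1- and 64-cell stages 10 and 3 had. The same share over all tested symbols is not given here, so nothing is read from these unadjusted counts.

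The called symbols were *selenoh* and *plekhg5* at the 1-cell stage and *poldip3* at the 64-cell stage. In *selenoh* the rising record had 8.48 and 10.6 in section D and at most 1.75 in any other section of 1-cell embryos, and the main falling record had 71.2, 84.3 and 78.5 in section E and 134, 101 and 124 in section A. Its adjusted p was 5.75e-04, and 5.95e-04 to 0.206 over the alternatives. In *plekhg5* at the 1-cell stage both records were vegetal, the rising one by 1.78 ± 0.54 and the falling one by 5.78 ± 0.25 (adjusted p of usage = 0.0072, and 0.00456 to 0.152 over the alternatives). In *poldip3* at the 64-cell stage the falling record had 9.84, 40.8 and 0 in section E and no count in sections A, B and C, while the rising one had 416, 366 and 283 in section E and 326, 250.5 and 262 in section A (adjusted p = 0.00312, and 0.00211 to 0.149 over the alternatives). None of the 3 was called when any 1 embryo of the stage was left out.

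Some pairs split unevenly from library to library. In 10 pairs the section libraries of the 4- and 1-cell stages overlapped in share. The rising share of *acly*, the enzyme that makes cytosolic acetyl-CoA, ran from 0% to 100.0% over the 4-cell libraries and from 0% to 26.7% over the 1-cell libraries. *nbea* and *rgl2*, an exchange factor for Ral GTPases, also ran from 0% to 100.0% over the 4-cell libraries. In *nbea* embryos of a stage differed too: the rising record had 1239.5, 751 and 824 in 4-cell and 228, 45.8 and 0 in 1-cell embryos, and the falling one 52.0, 314 and 344 in 4-cell and 1736, 1759 and 1932 in 1-cell embryos. No embryo of the 4-cell stage overlapped with one of the 1-cell stage in either record. The sum over its 4 records was steadier, at 2408 ± 176 in 4-cell and 2719 ± 199.9 in 1-cell embryos (SD, n = 3 each).

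The 19 remaining symbols were *acly*, *ahcy*, *cenph*, *gstm4*, *march10*, *mgat2*, *nacc1*, *ncor1*, *nhsl1*, *pelo*, *picalm*, *plscr2*, *pnp*, *rgl2*, *selenok*, *supt20h*, *tfap4*, *ttf1* and *vrk3*. Their rising records averaged 62.9% (*nacc1*) to 100.0% of the pair in 4-cell and 0% (*nacc1*) to 49.1% (*gstm4*) in 1-cell embryos. In *vrk3*, of the vaccinia-related kinases, the falling record kept a larger part, and the rising share was 69.4% ± 1.73 in 4-cell and 0.234% ± 0.405 in 1-cell embryos (SD, n = 3 each). Distance to the threshold of 3 was taken from the largest rise and the largest fall among the records of a symbol, not from its main pair. By this measure *cnp* was the last symbol inside, with a rise of 3.10-fold. It was followed by *tfap4* with a fall of 3.33-fold and *rgl2* with one of 3.37-fold. Just outside were *c20orf27*, with a largest rise of 2.87-fold, *dvl3*, with a largest rise of 2.94-fold, and *aco1*, with a largest fall of 2.93-fold. *cnp* left the list without 1-cell replicate 2 or 4-cell replicate 1, *tfap4* without 4-cell replicate 1 and *rgl2* without 4-cell replicate 2.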

How the data were processed

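Total RNA depleted of ribosomal RNA was sequenced from 60 labelled sections of 12 embryos, of which 59 gave libraries used here. The authors trimmed reads with Trimmomatic, removed ribosomal and mitochondrial reads, estimated counts per contig of the transcriptome AmexT_v34 with kallisto 0.43.1, kept contigs with over 30 counts in at least 1 sample and scaled with DESeq2. The deposited estimated counts per section were whole numbers, and their sums over sections equalled the deposited totals per embryo. The deposited normalised counts of embryos (a signal scaled by median-of-ratios size factors) gave the stage means of the rule. Section values printed here are those estimated counts scaled in the same way, by 1 factor per library over the whole series. Contigs were given human symbols through the deposited ortholog table, and RefSeq genes were used for names and numbers of genes only. The tables of sections that the authors had normalised were not used. No column of per-sample values lacked a sample (0 such columns).

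Sections of a stage were tested with edgeR 4.0.16 (quasi-likelihood, R 4.3.3) with the embryo as a block, since the sections of 1 number were cut from the same embryo. Usage was tested with diffSpliceDGE, and 1K-cell over 64-cell totals in a fit of all 12 embryos. All tests ran over the whole table with Benjamini-Hochberg adjustment and were two-sided. The fits were also run on simulated data, and the outcome is not given here. Alternatives used DESeq2 1.42.0, limma 3.58.1, TMM, filterByExpr, other thresholds, no block and each embryo left out. P-values of section and usage rest on the spread left between embryos in their section profiles, after the embryo block. Those of 1K-cell over 64-cell totals rest on the spread between embryos of a stage, estimated from all 12 embryos.

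The members and lists were chosen with earlier results of these data known. Named symbols were the 20 with the largest lesser change of their pair, those the study's text names, the 5 called with the smallest adjusted p in each test, and up to 4 of each functional list. Further symbols were named after their values were seen, as exceptions, extremes or values next to the threshold. The values of 1 named symbol are not reported here.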

Additional observations from a re-analysis of the deposited data

How the results depend on the processing

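The number of switch symbols, 51 as reported, was 49 to 55 with 5 other settings (sections A, B, C and E only, totals scaled to 1 library total, sums of normalised section counts with 1-cell replicate 3 left out, a pseudocount of 10, and the axolotl gene symbol in place of the human one, which was chosen after seeing the data), 41 with a ratio of 4, and 51 to 56 with 1 embryo left out. It followed the thresholds: 121 with a ratio of 2, 78 with a mean of 100 or more, 111 with no minimum and 15 with a mean of 1000 or more. With sums of normalised section counts 5 symbols were lost (*acox2*, *cenph*, *rgl2*, *ttc26* and *zbtb11*). With the axolotl symbol 43 of the 55 were shared. Calls by section rose with DESeq2 to 21, 10, 9 and 11 (in the order of stages). With 1 embryo left out they were 3 to 4, 0 to 5, 1 to 2 and 2 to 3, and without the replicate block 10, 6, 4 and 5. Calls over all transcripts also fell with 1 embryo left out, as given above. For DESeq2 and no block they are not given here, so nothing about the members is read from those counts. For usage at the 1-cell stage there were 5 calls at an adjusted p under 0.05, 1 with filterByExpr, 0 with Simes-combined tests and 0 to 0 with 1 embryo left out. The 1 usage call at the 64-cell stage was 0 with Simes-combined tests, with limma, without the replicate block and with any 1 embryo left out. Between 1K-cell and 64-cell totals 1 transcript was called with DESeq2 and 1 at an adjusted p under 0.05. There embryos of the stages share only a number, and with that number as a replicate block 0 transcripts and 0 summed levels were called. The 64 recomputed log2 ratios of 4-cell over 1-cell totals kept their direction with other totals and with 1 embryo left out. This was all but fixed in advance, since the members were chosen by these ratios. The 29 called section differences, which belong to 13 transcripts, kept theirs with TMM, filterByExpr, no block and 1 embryo left out. That too was nearly fixed in advance, since they were chosen by their calls in the same libraries. Many of these differences were no longer called with 1 embryo left out, as counted above. The log2 ratios of summed levels of 4-cell over 1-cell embryos were not recomputed. The cause of each change was not tested, beyond fewer embryos or another threshold where that is the setting. With 3 embryos per stage and 2 in section D of the 1-cell stage, differences of low counts between sections could not be resolved.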
